A study of Mus musculus with 3 samples.

Results

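NF-kB transcription factors and their inhibitors were examined as 9 genes, Nfkb1, Nfkb2, Rel, Rela, Relb, Nfkbia, Nfkbie, Nfkbiz and Tnfaip3, chosen by symbol from the 22350 protein-coding genes of an annotation of the mouse genome build mm9. For each gene the span of all its annotated transcripts was extended by 20 kb on either side, and every Runx3 peak and every H3K4me1 region that shared at least 1 bp with this window was listed. The 9 windows held 27 of 15524 Runx3 peaks and 61 of 49902 H3K4me1 regions, and no peak or region fell in more than 1 of them. All 9 genes had a Runx3 peak, beside 51.0% of all protein-coding genes, and at 8 of them a peak lay under 1 kb from an annotated start, beside 27.2%. The exception was Rela, whose 2 peaks lay beyond its far end in a neighbouring gene.

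The lists came from chromatin immunoprecipitation sequencing (ChIP-seq) of resting natural killer (NK) cells, purified from the spleens of ICR mice and used without cytokine stimulation. In ChIP-seq, chromatin is fixed, sheared and pulled down with an antibody, and the DNA that comes with it is sequenced. There were 3 samples, each from chromatin fixed with 1% formaldehyde and sheared to about 300 bp. The first was precipitated with an in-house polyclonal antibody to Runx3, the second with a monoclonal antibody to H3K4me1, a single methyl group on lysine 4 of histone H3, and the third with non-immune rabbit serum (NIS), the control against which both lists were called. The animals were ordinary outbred mice, and no transgene, deletion or treatment is named for any sample. The labels give a final sort on NKp46, while the study's methods name DX5, and both are surface markers of NK cells. As a check of the cell type, all 6 NK cell marker genes examined (Ncr1, Klrb1c, Tbx21, Eomes, Prf1 and Gzmb) had Runx3 peaks, 2 to 12 each, and H3K4me1 over 29.77% to 78.72% of their windows. Of the marker genes of other cells, the B cell genes Ms4a1 and Pax5 had 0 and 7.033% of their windows in H3K4me1, the T cell genes Cd3e, Cd4 and Cd8a 0 to 27.35%, and the myeloid genes Csf1r and Cd14 4.963% to 20.53%, and 4 of these 7 genes had a Runx3 peak. By the same rule 51.0% of all genes had a peak. Ms4a1 and Cd8a had neither a peak nor a region, Cd4 had 0 peaks, and Cd3e, with 2 peaks and 27.35%, came close to the 29.77% of Eomes, the lowest NK cell marker.

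Each antibody had 1 list, called on the joined reads of its repeats, so there was no spread between replicates and no test between conditions. The lists hold positions with no score and no read depth, so peaks could be counted and placed but not ranked by strength. Shares are given with 95% Wilson intervals, which cover counting error over peaks or genes only. The intervals take peaks as independent, although 9 of the 27 member peaks were at Nfkb1. A list from a population of cells does not show what fraction of the cells carried a given peak.

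NF-kB is a family of dimeric transcription factors that is held inactive in the cytoplasm by inhibitors of the IkB family. Signals from cytokine, Toll-like and activating receptors lead to the destruction of the inhibitor, and the freed dimer enters the nucleus and binds kB sites. The genes of several IkB proteins, of the ubiquitin-editing enzyme encoded by Tnfaip3 and of some of the subunits are themselves textbook targets of NF-kB, which gives the pathway its feedback. Runx3 is a Runt-domain transcription factor of cytotoxic lymphocytes, and H3K4me1 marks enhancers and the flanks of active promoters.

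The promoter sequences are given first, because at 5 of the 9 genes a Runx3 peak covered most or all of the promoter. A promoter here is the stretch from 250 bases before to 50 bases after the first start, meaning the most upstream annotated transcript start of a gene, and its first 280 bases are printed from 5′ to 3′ on the strand of the gene. Capitals mark matches to the NF-kB consensus (the kB consensus, 10 letters, searched on both strands) or to the RUNX consensus, which was searched on both strands in 4 forms. The forms with T after the opening TG were TGTGGT or the variant ending in C (TGTGGC), and those with C after it were TGCGGT or again the variant ending in C (TGCGGC). The 4 promoters of Nfkb2, Rel, Nfkbia and Nfkbie lay wholly inside a Runx3 peak and held a kB match, and Relb is shown because its 2 kB matches lay upstream of its peak.
Nfkb2 promoter, chr19:46378977-46379256, plus strand: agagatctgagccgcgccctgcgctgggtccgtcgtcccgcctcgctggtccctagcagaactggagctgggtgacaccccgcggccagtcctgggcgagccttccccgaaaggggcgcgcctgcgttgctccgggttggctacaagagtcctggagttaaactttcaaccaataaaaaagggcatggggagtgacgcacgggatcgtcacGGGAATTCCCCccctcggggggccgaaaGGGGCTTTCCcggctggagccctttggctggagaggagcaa
Rel promoter, chr11:23670941-23671220, minus strand: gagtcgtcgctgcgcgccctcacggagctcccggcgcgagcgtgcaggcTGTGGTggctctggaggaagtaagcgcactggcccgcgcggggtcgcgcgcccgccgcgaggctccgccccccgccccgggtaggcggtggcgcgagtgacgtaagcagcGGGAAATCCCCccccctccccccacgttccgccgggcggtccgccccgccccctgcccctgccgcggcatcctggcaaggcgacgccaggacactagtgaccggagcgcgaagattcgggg
Relb promoter, chr7:20214758-20215037, minus strand: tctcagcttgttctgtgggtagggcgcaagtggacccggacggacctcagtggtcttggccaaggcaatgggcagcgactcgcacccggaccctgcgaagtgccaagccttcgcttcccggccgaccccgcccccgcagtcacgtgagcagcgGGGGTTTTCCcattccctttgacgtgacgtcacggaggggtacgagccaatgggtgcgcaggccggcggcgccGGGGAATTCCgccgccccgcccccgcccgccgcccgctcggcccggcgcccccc
Nfkbia promoter, chr12:56593605-56593884, minus strand: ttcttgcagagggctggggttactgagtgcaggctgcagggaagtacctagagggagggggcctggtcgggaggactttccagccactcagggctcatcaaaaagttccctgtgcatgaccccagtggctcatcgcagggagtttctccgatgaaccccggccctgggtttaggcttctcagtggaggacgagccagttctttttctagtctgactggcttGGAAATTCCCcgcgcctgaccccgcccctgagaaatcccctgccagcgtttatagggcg
Nfkbie promoter, chr17:45692415-45692694, plus strand: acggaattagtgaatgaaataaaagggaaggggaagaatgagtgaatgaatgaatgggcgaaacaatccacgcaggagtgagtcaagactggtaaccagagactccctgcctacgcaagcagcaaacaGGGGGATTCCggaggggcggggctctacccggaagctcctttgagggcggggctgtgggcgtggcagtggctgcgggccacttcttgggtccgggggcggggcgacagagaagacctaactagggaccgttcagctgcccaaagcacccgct

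Nfkb1 and Nfkbiz had a kB match shortly after the first start, with no Runx3 peak there. The peak of Tnfaip3 held 2 kB matches, downstream of its first start and upstream of the next. These are shown as the match in capitals with the neighbouring bases.
Nfkb1 kB match, chr3:135354462-135354490, minus strand: cgacgtcagtGGGAATTTCCagccaggaa
Nfkbiz kB match, chr16:55838963-55838992, minus strand: tttttggcctGGGAATTTCCagcgtgtgga
Tnfaip3 kB match at chr10:18735219-18735228, plus strand: ttgccaacagGGGGATTTCCgatggaaatt
Tnfaip3 kB match at chr10:18735332-18735341, plus strand: gtcccgccccGGGGTGTCCCcgcgtgagtc

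The third set shows, for the peak nearest to a start of each gene, the RUNX match closest to the midpoint of that peak, with all RUNX matches in capitals. A match on the minus strand appears here as its reverse complement. Stretches are shorter where the surrounding sequence is annotated as untranslated. The peak of Rela nearest to its start held 0 RUNX matches, so none is printed for that gene. Whether T or C follows the opening TG differs among these genes.
Nfkb1, chr3:135257431-135257551, plus strand: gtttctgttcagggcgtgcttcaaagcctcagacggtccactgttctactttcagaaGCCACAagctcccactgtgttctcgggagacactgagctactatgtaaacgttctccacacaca
Nfkb2, chr19:46378737-46378857, plus strand: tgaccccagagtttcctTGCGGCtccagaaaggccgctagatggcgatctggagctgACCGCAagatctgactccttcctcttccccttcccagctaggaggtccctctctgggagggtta
Rel, chr11:23670910-23670938, plus strand: tcctctgggttTGCGGCtcacaccttccc
Relb, chr7:20213891-20214011, plus strand: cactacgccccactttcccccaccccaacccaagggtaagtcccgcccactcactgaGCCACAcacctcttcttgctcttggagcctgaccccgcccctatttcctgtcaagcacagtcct
Nfkbia, chr12:56593287-56593407, plus strand: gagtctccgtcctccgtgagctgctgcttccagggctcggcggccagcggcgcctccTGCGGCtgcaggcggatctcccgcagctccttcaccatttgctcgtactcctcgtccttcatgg
Nfkbie, chr17:45692683-45692711, plus strand: aaagcacccgcTGCGGTggacctggccgg
Nfkbiz, chr16:55822219-55822247, plus strand: acgcggttggcTGCGGCagagcgactagt
Tnfaip3, chr10:18735021-18735050, plus strand: GCCGCAgcccgggatcgtggtccgggtcgt

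In 6 of the 8 stretches the RUNX match shown was of the form TGCGGT or TGCGGC, and in the other 2, at Nfkb1 and Relb, it was TGTGGC. None was TGTGGT, but this covers only the match nearest to the midpoint of each peak. Elsewhere in the same peaks TGTGGT occurred at Nfkb1, Nfkb2 and Rel. Counted anywhere in a peak, it occurred in 62.96% of the members' 27 peaks.

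The members were first set beside all protein-coding genes. A Runx3 peak was found in the window of 9 of 9 members, against 51.0% of all protein-coding genes with the same rule, or 11403 genes. The number of genes with 2 or more peaks was 8 of 9, the exception being Tnfaip3 with 1, against 27.5% of all genes. Window length bears on these shares, since 38.93% of genes with windows of up to 50 kb had a peak and 59.96% of those between 50 and 75 kb. The members' windows ran from 43.24 kb at Nfkbia to 146.9 kb at Nfkb1, with a median of 54.75 kb beside 55.43 kb over all genes. A peak with its midpoint under 1 kb from any annotated start was present at 8 of 9 members, against 27.2% of all genes. With the first start alone the count was 6 of 9, namely Nfkb2, Rel, Relb, Nfkbia, Nfkbie and Tnfaip3, against 24.7% of all genes. The members' count stood above the background share under each of these 4 rules, with 9 genes behind it.

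**Figure D1:**
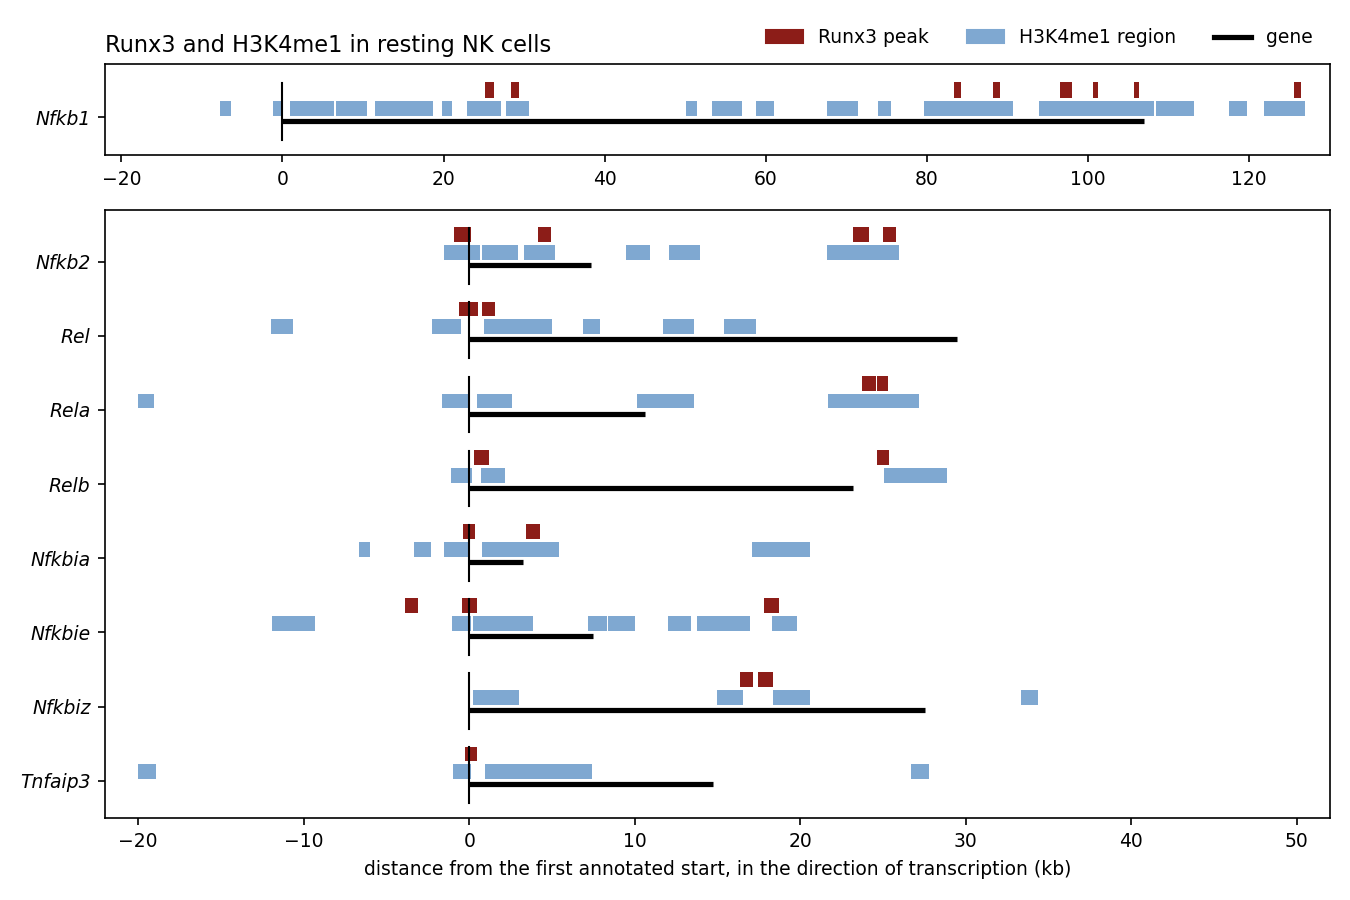
Runx3 peaks (red), H3K4me1 regions (blue) and gene spans (black) in the 9 windows, by distance from the first annotated start in kb along the direction of transcription, with Nfkb1 on its own longer axis. Peaks sit at the first start in Nfkb2, Rel, Nfkbia, Nfkbie and Tnfaip3, and from 269 bp downstream of it in Relb. They lie inside the gene in Nfkb1 and Nfkbiz, and over 20 kb downstream in Rela.

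**Figure D2:**
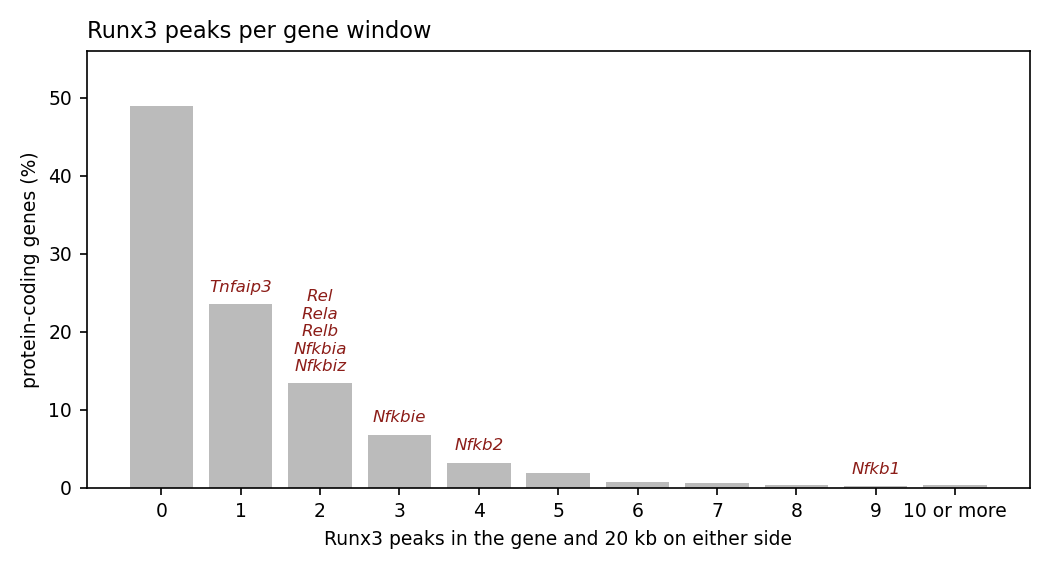
Percent of the 22350 protein-coding genes with each number of Runx3 peaks in the window, with the 9 members named above the bar of their own count. Nfkb1 stands at 9 peaks, a number that 0.519% of all genes reach or pass, and Tnfaip3 at 1.

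Nfkb1 encodes the p105 precursor, which is processed to the p50 subunit of the canonical dimer. It lies on the minus strand of chromosome 3 (chr3:135247619-135354511) and spans 106893 bp. Its window held 9 Runx3 peaks, and 0.519% of all genes had as many or more, whatever the length of their windows. Per 10 kb of window Nfkb1 had 0.6127 peaks, fewer than Nfkb2 at 0.8447 and Nfkbie at 0.6322. Nfkb1 was the member richest in H3K4me1, with 19 regions over 52.59% of the window, above 98.46% of all genes. The peaks were not at the promoter of the first start. The nearest midpoint to the first start lay 25707 bp downstream, and the promoter had 0 bases inside a peak. The first start itself lay between H3K4me1 regions, one ending 67 bp upstream and the next starting 917 bp downstream. The 9 peaks fell instead in the body and beyond the far end, in 3 places. The peaks at chr3:135325162-135326084 and chr3:135328237-135329371 lay 28888 and 25707 bp into the gene. The latter was the widest of this gene at 1135 bp, with 6 RUNX matches, the most of any member's peak. Other protein-coding transcripts begin 23739 and 23748 bp into the gene. The midpoint of the widest peak lay 1959 bp downstream of the start at 23748 bp. A run of 6 peaks between 83751.5 and 105998.5 bp from the first start lay in the last part of the gene. The last peak lay 125989.5 bp from it in an intron of the neighbour Manba.

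The run of 6 peaks sat in 2 broad H3K4me1 regions. The region chr3:135246313-135260628, at 14316 bp the widest at any member, held 4 peaks, and the next, of 11005 bp, held the other 2. All 9 peaks of Nfkb1 lay wholly inside H3K4me1. Of the 9, 4 had a midpoint under 1 kb from an annotated internal start, and the closest, chr3:135257094-135257975, covered one at a distance of -129.5 bp (a negative distance is upstream). These internal starts belong to 1 protein-coding transcript, 1 annotated for nonsense-mediated decay and 2 processed transcripts without a coding frame. The peaks there were low in CpG dinucleotides, at 1.441 to 2.721 per 100 bp, and held 0 kB matches. That peak and its neighbour at chr3:135256493-135257090 are separated by 3 bp, so that the call of 2 peaks rather than 1 rests on the peak caller.

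Nfkb2, whose p100 product acts as an inhibitor until it is processed to the p52 subunit of the non-canonical arm, lies at chr19:46379227-46386580 on the plus strand. It had 4 peaks, a number that 7.32% of all genes reach or pass. The start peak, chr19:46378334-46379326, was also its widest at 993 bp, had its midpoint 397 bp upstream of the first start and lay wholly inside an H3K4me1 region. It held 3 RUNX and 3 kB matches. Of the kB matches, 2 overlap, sharing all but 1 base, at -39 to -29 bp, and the third lies at -11 to -2 bp, while the RUNX matches stood 388 bp or more from the nearest kB match. A second peak lay in the gene body. The remaining 2 peaks, chr19:46402436-46403378 among them, were in Fbxl15, whose start was 233 bp from the midpoint of that peak, so by position they belong to the neighbour as much as to Nfkb2. The widest H3K4me1 region of the window, of 4395 bp, was also the one at Fbxl15.

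Rel encodes c-Rel, a subunit prominent in lymphocytes, and lies at chr11:23641514-23670970 on the minus strand. Its start peak, chr11:23670454-23671592, was the widest of all 27 at 1139 bp, with its midpoint 53 bp upstream of the only annotated start. Of its bases 12.91% were inside H3K4me1, and 992 bp of it lay in a gap of 1371 bp between 2 regions. It held 2 RUNX matches, 1 ETS match and 3 kB matches, of which 2 overlap at -91 to -81 bp. The second peak, chr11:23669385-23670174, lay 279 bp further into the gene in an intron. It was 87.34% inside the widest H3K4me1 region of the window, of 4097 bp, and had 1 RUNX match and 0 kB matches. Side by side the 2 peaks of Rel thus differed in base composition, with 66.37% and 37.72% of bases G or C, and in H3K4me1.

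Rela encodes p65, the main transactivating subunit of the canonical dimer, and lies at chr19:5637483-5648130 on the plus strand. No Runx3 peak lay in the gene or within 20 kb upstream. Its first start sat in a gap between 2 H3K4me1 regions, one ending 29 bp upstream and the next beginning 444 bp downstream. The first starts of Nfkb1 and Rel also lay in such a gap, with a Runx3 peak in it at Rel and none at Nfkb1 or Rela. The peaks of Rela, chr19:5661195-5662042 and chr19:5662107-5662792, were 64 bp apart and wholly inside an H3K4me1 region of 4178 bp. They lay in Sipa1, whose start was 2088.5 and 1257.5 bp from their midpoints. The first is 1 of only 2 member peaks without a RUNX match and held 4 ETS matches (AGGAAGT or CGGAAGT), the most of the 27. The second held 1 TGTGGT.

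Relb encodes the subunit that pairs with p52 in the non-canonical arm, and lies at chr7:20191566-20214787 on the minus strand. Its window was the poorest in H3K4me1, with 3 regions over 10.17%, which is above 58.33% of all genes. The start peak, chr7:20213615-20214518, was centred 720.5 bp downstream of the first start and 66.5 bp from the start of an internal processed transcript. It held 1 RUNX and 1 kB match, and 48.45% of it was in H3K4me1. Unlike the peaks of Nfkb2, Rel, Nfkbia and Nfkbie, it did not reach the promoter, whose 2 kB matches at -97 to -88 and -24 to -15 bp were inside H3K4me1. The other peak, chr7:20189398-20190149, was at the start of Clasrp, 43.5 bp from it, beside the widest region of the window, of 3759 bp.

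Nfkbia encodes IkB-alpha, the classic inhibitor that NF-kB itself induces, and lies at chr12:56590398-56593634 on the minus strand. With 3237 bp it is the shortest member and no other protein-coding gene enters its window. The start peak, chr12:56593266-56594032, had its midpoint 15 bp upstream of the only annotated start. It held 1 RUNX match and 2 kB matches, one of them at -29 to -20 bp and 9.5 bp from the midpoint of the peak. H3K4me1 covered 60.76% of the peak, and a gap of 696 bp began 68 bp into the gene. The second peak, chr12:56589329-56590193, lay just past the 3′ end, wholly inside the widest region of the window (4666 bp), with 2 TGTGGT and 1 kB match 73 bp from the nearest of them. The gene was thus flanked by a Runx3 peak at each end.

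Nfkbie encodes IkB-epsilon, another inhibitor that retains NF-kB in the cytoplasm, and lies at chr17:45692665-45700118 on the plus strand. Its start peak, chr17:45692210-45693142, was the best centred of all, with the midpoint 11 bp from the only annotated start, and it was also the widest of this gene at 933 bp. It touched 2 H3K4me1 regions, spanned the gap of 140 bp between them and was 84.99% covered. It held 2 RUNX matches and 1 kB match at -122 to -113 bp. A second peak, chr17:45688773-45689566, lay in intergenic sequence with its midpoint at -3495.5 bp with 3 RUNX matches, and was 2084 bp from the nearest H3K4me1 region, the farthest of the 27. The third, chr17:45710497-45711402, had its midpoint at -729.5 bp from the start of Hsp90ab1. The widest region of the window, of 3650 bp, began 230 bp inside Nfkbie.

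Nfkbiz encodes IkB-zeta, an atypical nuclear member of the family that works as a cofactor of NF-kB, and lies at chr16:55811488-55839012 on the minus strand. As at Nfkb1, its first start had no peak. The nearest midpoint was 16744 bp away, in chr16:55821879-55822657, which was centred 17 bp upstream of an internal start of 1 protein-coding transcript. That peak had the highest CpG density of the 27, at 11.81 per 100 bp, held 3 RUNX matches of the forms TGCGGT and TGCGGC, and was 26.32% inside H3K4me1. The other, chr16:55820674-55821539, lay 339 bp further along in an intron, touched no H3K4me1 but came within 18 bp of a region, and held the kB match nearest to a RUNX match of all 14, with 8 bp between them. Both peaks overlapped a gap of 1796 bp between regions. The widest region of the window, of 2802 bp, lay elsewhere, 216 bp downstream of the first start.

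Tnfaip3, whose product removes and edits ubiquitin chains to end NF-kB signalling, lies at chr10:18720716-18735463 on the minus strand. It had the fewest peaks of the members, 1, a number that 51.02% of all genes reach or pass. The peak, chr10:18734985-18735689, was centred 126 bp downstream of the first start and also covered the next, which begins another protein-coding transcript. It held 1 RUNX match and 2 kB matches, 1 of them centred at -7.5 bp from that next start and the other at the midpoint of the peak. Of the peak 43.97% lay in H3K4me1, the rest in a gap of 899 bp between a region at the first start and the widest region of the window, of 6452 bp over the body of the gene.

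At several starts the Runx3 peak overlapped a gap in H3K4me1, to differing extents. The bases of the peak in the gap ran from 140 at Nfkbie to 992 at Rel. At Nfkbia and Nfkbie the midpoint lay inside a region, with 60.76% and 84.99% of the peak covered. At Rel, Relb, Nfkbia, Nfkbie, Nfkbiz and Tnfaip3 the start peak overlapped a gap of 140 to 1796 bp between regions, whereas the start peak of Nfkb2 and the 4 at internal starts of Nfkb1 lay wholly inside a region. Over all Runx3 peaks under 1 kb from a start of any protein-coding gene, 29.89% were wholly inside H3K4me1, against 91.2% of those farther away. Among the members, 5 of the 11 start peaks were wholly inside, 4 of them at Nfkb1, and without Nfkb1 the count was 1 of 7. Of the 16 peaks 1 kb or more from their own starts, some of which lay at starts of neighbours, 11 were wholly inside.

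**Figure D3:**
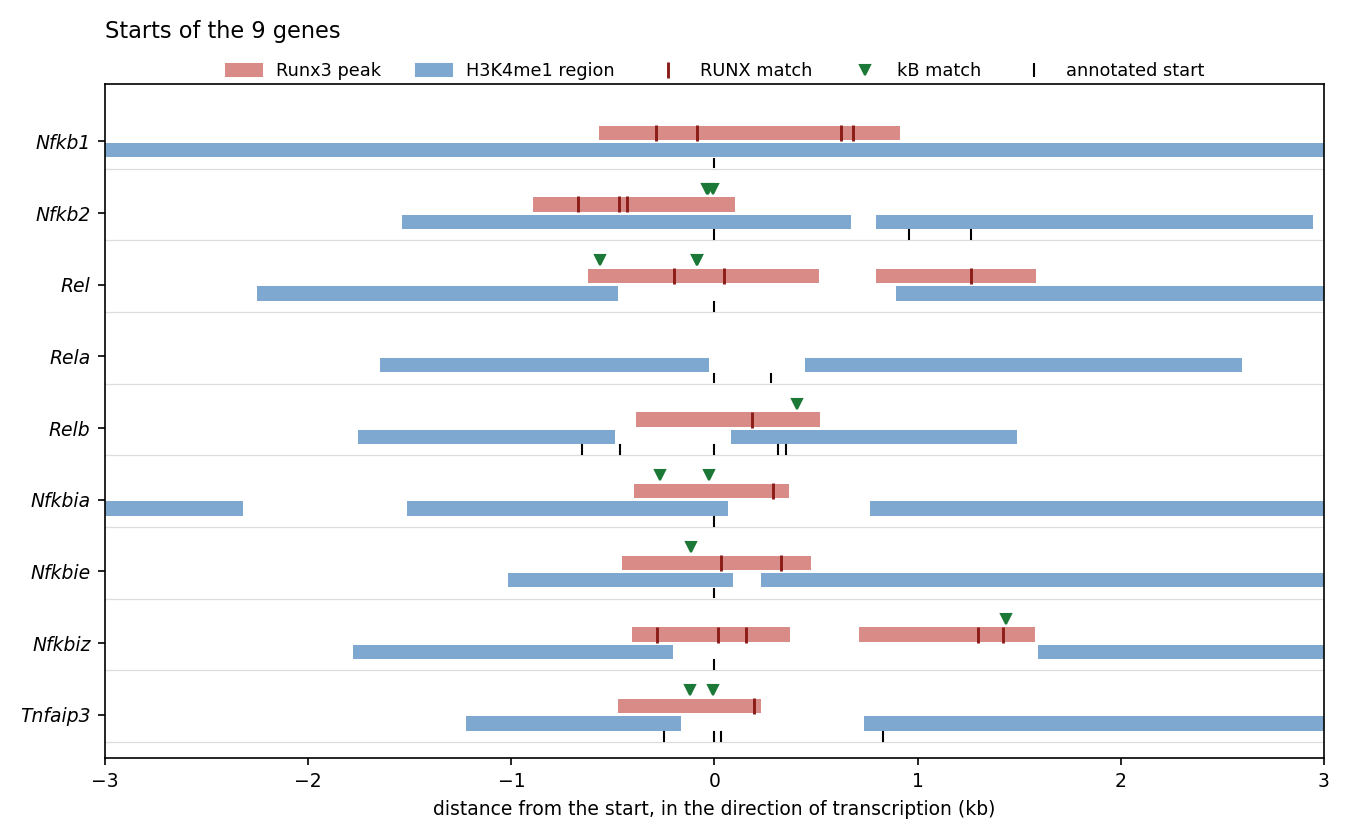
Runx3 peaks (pink) with RUNX matches (red ticks) and kB matches in peaks (green triangles), H3K4me1 regions (blue) and annotated starts (black ticks) within 3 kb of the start nearest to a peak of each gene, or of the first start of Rela. The Runx3 peaks of Rel, Relb, Nfkbia, Nfkbie, Nfkbiz and Tnfaip3 overlap a gap in H3K4me1, most of the Nfkbie peak being outside it. Those of Nfkb1 and Nfkb2 lie inside a region, and Rela has a gap and no peak.

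Counted over the whole list of peaks, 25 of 27 member peaks (92.59%, interval 76.63% to 97.94%) shared at least 1 bp with H3K4me1, beside 95.67% of all Runx3 peaks. The midpoint was inside a region in 20 of 27 (74.07%, interval 55.32% to 86.83%), beside 83.59%. In the other direction 20 of 61 H3K4me1 regions (32.79%) had a Runx3 peak, beside 28.61% of all regions. The intervals of the members include the values of the whole lists in these 3 counts. H3K4me1 itself was denser around these genes: it covered 28.52% of the 9 windows together, beside 9.629% over all gene windows, and 20.55% with Nfkb1 left out. Over the 9 genes the median cover was 26.51%, beside 7.381% over all genes.

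**Figure D4:**
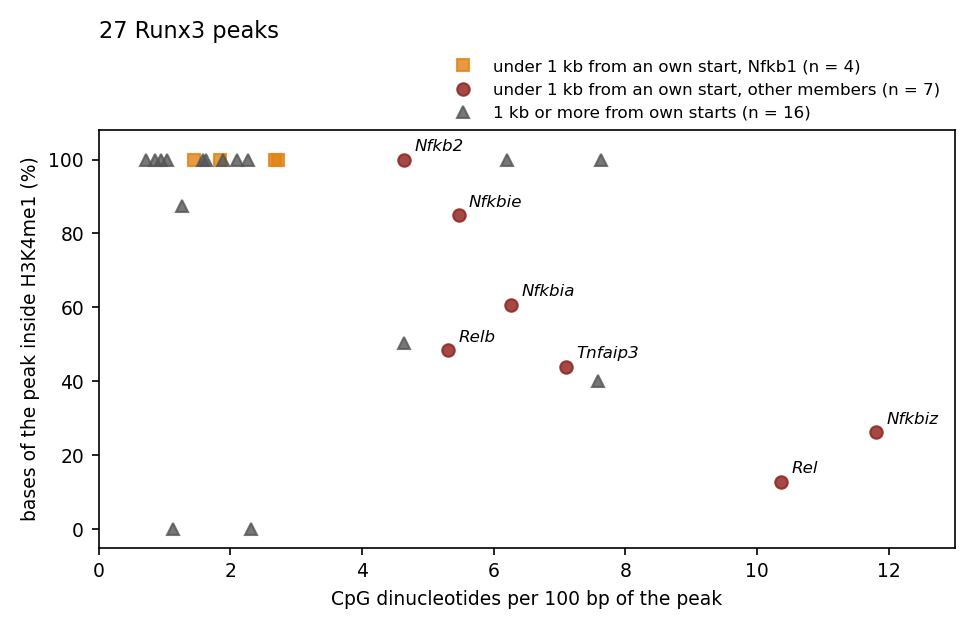
Share of each of the 27 Runx3 peaks that lies inside H3K4me1, in percent, against the CpG dinucleotides per 100 bp of the peak, with 1 point per peak. Peaks at starts of members other than Nfkb1 (red circles) lie between 4.632 and 11.81 CpG per 100 bp and between 12.91% and 100% cover, and the 4 at internal starts of Nfkb1 (orange squares) lie at 1.441 to 2.721 and at 100%.

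In the plot of CpG density against H3K4me1 cover, the start peaks of Nfkb1 were lower in CpG than those of the other members, a contrast that rests on Nfkb1 alone. The 7 outside Nfkb1 had a median of 6.258 CpG per 100 bp, beside 1.76 for the 16 peaks away from the members' own starts, some of which lay at starts of neighbours. The 4 at internal starts of Nfkb1 had a median of 2.259.

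The RUNX consensus was found in a share of the members' peaks close to that of all peaks. A match was present in 25 of 27 peaks (92.59%, interval 76.63% to 97.94%), beside 93.27% of all Runx3 peaks, and within the central 200 bp in 70.37%, beside 69.15%. There were 59 matches, or 2.608 per kb, beside 3.194 per kb in all peaks. By form, TGTGGT was in 62.96% of the members' peaks and 65.48% of all, TGTGGC in 37.04% and 54.15%, TGCGGT in 29.63% and 24.67%, and TGCGGC in 40.74% and 26.13%. The forms with C after the opening TG, which contain a CpG, were in 8 of the 11 start peaks (6 of 7 without Nfkb1) and in 7 of the 16 peaks away from own starts. TGTGGT was in 6 of those 11, namely 4 of 4 at Nfkb1 and 2 of the 7 others, and in 11 of those 16. ETS letters (both strands) were in 12 peaks, or 44.44% beside 41.81% of all, and those of AP-1 (TGAGTCA or TGACTCA) in 6, or 22.22% beside 16.53%. RUNX and ETS matches within 50 bp of each other were found in 3 of 27 peaks, beside 17.33% of all peaks.

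The kB consensus was more frequent. It was matched in 8 of 27 peaks (29.63%, interval 15.85% to 48.48%), beside 11.65% of all Runx3 peaks, by 14 matches at 12 separate places in 7 of the 9 genes. In the central 200 bp it was present in 14.81%, beside 2.918%. Of the 7 start peaks outside Nfkb1, 6 held it, the exception being Nfkbiz, whereas the 4 peaks at internal starts of Nfkb1 held none and the 16 other peaks held it in 2. In the promoters of the first starts it was matched at 7 of 9 members (77.78%, interval 45.26% to 93.68%), all except Rela and Tnfaip3, beside 4.738% of all 22350 promoters. Counting the promoters of every annotated start, 8 of 9 members had a match, with Tnfaip3 added, beside 9.365% of all genes. At Nfkb2, Rel, Nfkbia and Nfkbie the matched bases lay inside a Runx3 peak, and at Nfkb1, Relb and Nfkbiz outside. The RUNX consensus in the same 9 promoters was matched at 3, Rel, Rela and Nfkbie, or 33.33% beside 45.32% of all promoters. Of the 4 promoters with a kB match inside a Runx3 peak, those of Rel and Nfkbie thus also held a RUNX match, while at Nfkb2 and Nfkbia the RUNX matches lay elsewhere in the peak. A match is a string of letters and not evidence of binding by NF-kB, which was not measured here.

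The other genes of the pathway were counted by the same window rule, over 36 genes. A Runx3 peak was present at 31 of them, beside 51.0% of all genes, and at 20 a midpoint was under 1 kb from a start, beside 27.2%, with 84 peaks in sum and H3K4me1 at all 36. The genes with most peaks were Nfkbid, which encodes another nuclear IkB protein, with 8, and Nfkbil1 and the adaptor gene Traf1 with 7 each. These counts cover the whole window, and peaks at neighbouring genes were not set apart. The windows of Birc2 and Birc3 overlap, and a peak shared by both would count for each. Most of the 36 windows were longer than 50 kb. Of all genes, 59.96% of those with windows between 50 and 75 kb had a peak, and 60.44% of those between 75 and 150 kb. At Nfkbil1 no peak midpoint lay under 1 kb from a start of the gene. By group, there were so few genes in each that the counts are read only beside the same 51.0%. The other IkB genes had a peak at 4 of 4, the genes of the IKK complex and IKK-related kinases at 3 of 5, and those of the non-canonical arm at 5 of 5. The upstream adaptors and kinases had one at 7 of 10, the CBM complex of antigen receptor signalling at 3 of 3, the linear ubiquitin ligase complex at 3 of 3, and the genes that restrain the pathway at 6 of 6. The 5 genes with 0 peaks were Chuk, Ikbke, Tab1, Tab3 and Traf6, which were named after their counts were seen. H3K4me1 cover ran from 2.468% at Tab3 to 65.26% at Nfkbil1. The IKK and IKK-related genes had the lowest upper end of the groups, at 7.264% to 16.09%, beside 29.1% to 65.26% at the other IkB genes.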

How the data were processed

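Runx3, H3K4me1 and NIS ChIP-seq was done on resting NK cells, listed as 1 sample each. The study's methods report biological repeats that were sequenced separately. The authors obtained reads of 40 bp, aligned them with ELAND (the submitters' processing notes name CASAVA 1.7), pooled the repeats of an antibody and called regions against NIS with MACS. The deposited files give region coordinates only, with no score or depth. Starts were read as 0-based and are printed 1-based on mm9 (NCBIM37).

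Genes and starts came from GENCODE vM1 on mm9, since the RefSeq tables at hand were of another build. Overlaps, coverage and motif matches were computed with Python 3.11.15, numpy 2.4.6 and scipy 1.17.1, and figures with matplotlib 3.10.9. The functions were tested on simulated data. No test was made. Shares are set beside the same share over all genes or peaks.

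The members, gene lists and motifs were chosen with earlier results of these data known. Peaks named are those nearest a start, the widest, all where a gene had 3 or fewer, and those without H3K4me1. Some others were named after their values were seen. No list of the NIS sample was used, and it served only as the authors' control. A result that needs a withheld item is not reported here.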

Additional observations from a re-analysis of the deposited data

How the results depend on the processing

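Of 39 alternatives to 10 results, 24 stayed within the limit set for their kind and 15 moved. The limit was 1.5 times the main value for counts, the 95% counting interval for shares, and the SD over the 9 members (13.19 percentage points) for H3K4me1 cover. It is wide for counts and cover, so that peak numbers of 19 to 37 and a cover of up to 40.07% counted as unmoved. Of the alternatives, 2 were chosen after seeing the data (peaks within 500 bp merged, which gave 23 peaks, and Nfkb1 left out of the cover). The number of members with a peak was 8 or 9 throughout, Rela being lost with a flank of 5 kb, with the gene body alone and with peaks assigned to the nearest start, and Tnfaip3 with peaks wider than the median. Peaks wider than the median numbered 15 in the members' windows. The share of all genes with a peak was 39.77% with flanks of 5 kb, 62.64% with 50 kb, 33.64% for the gene body alone and 35.13% for the wider peaks. H3K4me1 regions in the windows numbered 97 with flanks of 50 kb and 34 among the wider regions, and their cover was 43% of the gene bodies alone, beside 8.54% over all gene bodies. The share of member peaks on H3K4me1 was 74.07% by midpoint, beside 83.59% of all Runx3 peaks. It was also 74.07% when at least 50% of the peak had to be inside (interval 55.32% to 86.83%). By that rule the share of all Runx3 peaks was 88.37%, above the members' interval, which takes the peaks as independent. With the wider regions the members' share was 70.37%, beside 78.86%. The RUNX share was 70.37% in the central 200 bp and 62.96% for TGTGGT alone. The kB share was 14.81% in the central 200 bp. With 1 mismatch allowed after the opening GGG, which was kept fixed, it was 74.07%, beside 62.41% of all peaks. The members' excess over the whole list was thus smaller with the looser consensus. No paired analysis was possible because each antibody had 1 list, with its repeats joined. Without scores or depth, peaks close to the calling threshold could not be told from strong ones, and with 1 list per antibody the spread between repeats is unknown.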
